A study of Mus musculus with 23 samples.

Results

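Lymph node (LN) B cells were described from the single-cell RNA sequencing (scRNA-seq) libraries of mice with wild-type (WT) Stat5b and of mice carrying the Stat5b Y665F knock-in. The cells were chosen by their measured UMIs (unique molecular identifiers, 1 per captured transcript). A barcode had to hold at least 200 genes, at most 10% of UMIs from mitochondrial genes, at least 1 UMI of Cd79a and no UMI of Cd3d, Cd3e or Cd3g. This B gate held 9706 of 43474 LN barcodes. The 7 libraries came from WT mice (n = 2), mice with 1 edited allele (Y665F het, n = 3) and mice with both alleles edited (Y665F homo, n = 2). Replicates are numbered as in the sample titles, the only label that gives zygosity. The mice shared a C57BL/6 background (C57BL/6N per the methods) and an age of 2 months, were males per the methods, and the labels give no treatment. The edit was made with CRISPR/Cas9 in zygotes and is germline, so every cell type of the mouse carries it and a difference in B cells need not arise in B cells. The labels do not say whether each library came from a separate animal, so p-values measure the spread between these libraries. A legend in the paper gives lymph node data as a combined sample of several mice per group under a title that names the spleen, so whether these libraries are pools is not settled here.

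B cells recognise antigen through a membrane immunoglobulin that signals through CD79A and CD79B. In lymph nodes most are small recirculating follicular cells. After antigen and T cell help some enter germinal centres, where they divide quickly, mutate their immunoglobulin genes and switch heavy chain class. Others become plasma cells, which devote much of their transcription to immunoglobulin. STAT5B is a transcription factor that JAK kinases activate downstream of cytokine receptors. Its best known roles in the B lineage lie in early development under IL-7, and it can compete with BCL6, the germinal centre regulator, at shared sites.

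The edit itself is shown because it defines the groups. It lies in exon 16 of 19 of Stat5b (minus strand of chromosome 11, GRCm38), in the codon at 100787291 to 100787293. The reference and the repair donor are given 5′ to 3′ along the transcript over chr11:100787276-100787305, with the edited codon in capitals.
Reference: ggggacctgaatTACctcatatatgtgttt
Y665F donor: ggggacctgaatTTTctcatatatgtgttt
Guide: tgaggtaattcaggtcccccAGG
The donor differed from the reference by A14T and C15T, counted from 1 at the 5′ end of this stretch, which replaces tyrosine with phenylalanine. These were the 2 differences found over the whole donor of 133 bases as listed. The methods also describe a silent C-to-G substitution that removes the PAM, which is not in the listed donor, so whether the allele carries it is not settled here. The guide, which covers chr11:100787287-100787309, reads against the transcript, and its capitals mark the PAM.

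The libraries differed in depth. The B gate held 2403092 and 2594984 UMIs in WT, 2076930, 1265143 and 256633 in Y665F het and 218955 and 693927 in Y665F homo. Het replicate 3 and homo replicate 1 stood apart, with medians of 301 and 297 UMIs per B gate barcode against 721 to 1941 in the other 5. In these shallow libraries 40.5% and 40.7% of the B gate passed with a single Cd79a UMI, against 1.26% to 14.2% elsewhere. Barcodes just outside the gate, with Cd79a and a Cd3 transcript together, numbered 148 and 302 in WT, 108, 91 and 81 in het, and in homo 46 and 62. Another B cell transcript, such as Cd79b or Ms4a1, was found in 67.9% and 69.9% of the B gate of the shallow libraries and in 91.5% to 98.3% of the others. A T cell receptor (TCR) contig was found in 6.58% and 4.81% of it in those libraries and in 0% to 1.09% elsewhere, against 91.9% to 96.8% of the T gate (a Cd3 UMI and no Cd79a). The label of B cells therefore held in all libraries, less cleanly in het replicate 3 and homo replicate 1. Pairs of libraries shared 0 to 7 B gate barcodes. Intervals given here are exact Clopper-Pearson intervals and cover counting error only.

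The share of kept barcodes in the B gate was lower in each Y665F library than in both WT libraries. It was 43.5% and 26.9% in WT, 21.0%, 23.8% and 13.9% in Y665F het and 11.8% and 16.1% in Y665F homo. The group means were 35.2% ± 11.8 (SD, n = 2), 19.6% ± 5.12 (n = 3) and 13.9% ± 3.06 (n = 2). The WT libraries lay far apart, and WT replicate 2 was nearer to het replicate 2 than to WT replicate 1. The share is relative, so it also depends on the number of other cells, and it is no count of B cells per node. Kept, B gate and T gate barcodes numbered 6703, 2916 and 3072, and 9216, 2476 and 5844, in WT. They numbered 5253, 729 and 2821 in het replicate 3 and 5468, 644 and 3110 in homo replicate 1. In these 2 shallow libraries more of the kept barcodes lay in neither gate than in WT. The order WT, het, homo, tested by exact permutation (two-sided), gave p = 0.0286 (adjusted p = 0.286 over the 10 shares tested), where the smallest p the 7 libraries allow is 0.00952. With every barcode thinned to 250 UMIs before gating, the shares were 30.4% and 18.8%, then 15.8%, 16.9% and 11.7%, then 9.72% and 12.4%, which left the exact p at 0.0286. Without WT replicate 1 the difference between homo and WT was -12.9 points and without WT replicate 2 it was -29.6 points. This order of shares was known before the B cells were chosen for study and is not independent support.

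**Figure D1:**
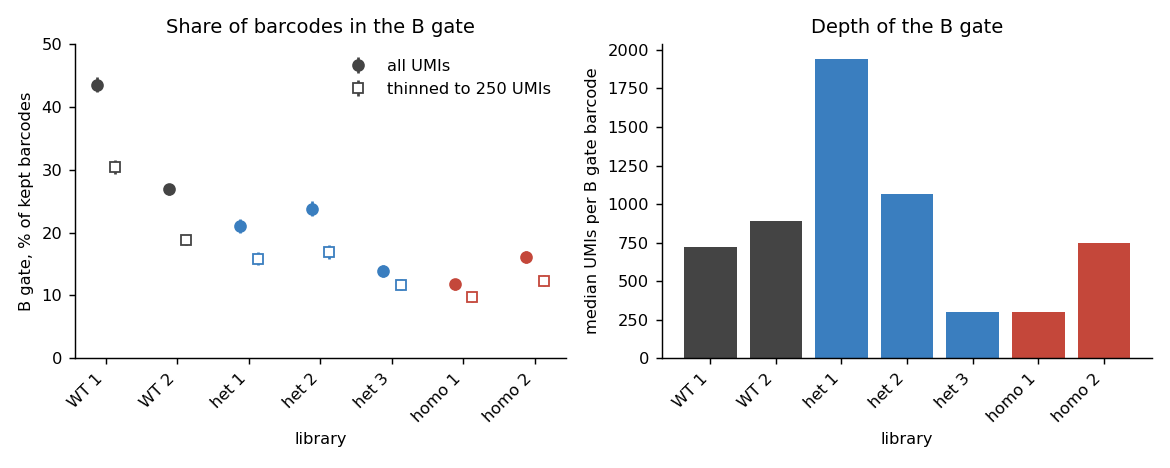
Share of kept LN barcodes in the B gate (left, %, filled circles with all UMIs and open squares thinned to 250 UMIs, bars exact 95% intervals) and median UMIs per B gate barcode (right) in each library of WT, Y665F het and Y665F homo. With all UMIs the WT points lie at 43.5% and 26.9% and the 5 Y665F points between 11.8% and 23.8%, and 2 Y665F libraries have medians near 300 UMIs (301 and 297).

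No gene on the B cell identity list was called between genotypes. Levels are given as CPM, the UMIs of a gene scaled to the same B gate total in every library. Cd79a, which chose the cells and is a description with no test, was at 4498 and 4271 CPM in WT, 5064, 4935 and 5829 in het, and in homo 6161 and 5258. The highest levels of Cd79a were those of the shallow libraries, where a barcode needs a Cd79a UMI among few. Ms4a1, which encodes CD20, was at 929 and 911 CPM in WT, 1024, 974 and 799 in het, and in homo 973 and 811, so the groups overlapped. Cd79b was at 2021 and 1862 CPM in WT and between 2118 and 2297 in Y665F (log2 fold change of homo against WT 0.23 ± 0.13 (SE), edgeR adjusted p = 0.72). The follicular genes Fcer2a (CD23) and Cr2 (CD21) gave log2 fold changes of 0.14 ± 0.14 and -0.19 ± 0.16 for homo against WT. Of 20 B cell identity genes, 0 were called in any contrast, and 5 (Cd79b, Blk, Cd37, Fcrla and Fcmr) were above both WT libraries in all 5 Y665F libraries, against 3.96% of all genes tested. The median log2 fold change of homo against WT was 0.015, against -0.003 over all genes tested.

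Stat5b itself was at 54.1 and 42.0 CPM in WT, 50.6, 39.5 and 58.5 in het, and in homo 50.2 and 62.0, and the groups overlapped. The edit replaces a codon, which a count of transcripts does not show, so these levels do not check the labels. For homo against WT the log2 fold change was 0.324, and -0.0084 to 0.538 leaving out 1 library. With 2 or 3 libraries a group, the overlap cannot show that the amount of Stat5b transcript is unchanged. Its neighbour and close relative Stat5a was at 22.1 and 21.97 CPM in WT and between 20.2 and 32.0 in Y665F. Il2rg, the common gamma chain through which IL-2, IL-4 and IL-7 receptors signal, gave a log2 fold change of 0.20 ± 0.16 and Il4ra, the IL-4 receptor, -0.21 ± 0.18 (homo against WT). Bcl2, a survival factor and STAT5 target in many cell types, was at 98.6 and 116 CPM in WT, 117, 127 and 168 in het, and in homo 137 and 107. Cish and Socs2, STAT5-induced inhibitors of cytokine signalling, were at most at 4.57 and 3.16 CPM in any library and too low to test. Of 23 STAT5 target genes 16 were tested and 0 were called in any contrast. At an unadjusted p under 0.05, 3 were higher and 1 was lower in homo, against 3.57% and 3.83% of all genes tested, and 0 were higher and 2 lower in het, against 2.62% and 3.66%. Myc and Pim1 were among the 3, with log2 fold changes of 0.69 ± 0.22 and 0.83 ± 0.25 (adjusted p = 0.543 each). Pim1 was at 73.2 and 89.02 CPM in WT and 91.3 and 167 in homo, and without homo replicate 2 its log2 fold change was 0.097. It was called with at least 500 genes per barcode (1.37, adjusted p = 0.0116) and with both shallow libraries left out (1.103, adjusted p = 0.0311).

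Across all genes few differences passed the test. Counts summed per library were compared with edgeR's quasi-likelihood test over 9000 genes, and calls needed a log2 fold change beyond 1 in either direction together with a p under 0.05 after Benjamini-Hochberg adjustment. For the change per edited allele the log2 fold change had to be beyond 0.5. For homo against WT, 1 gene was called (0.0111% of those tested), an immunoglobulin variable segment, while 666 genes had an unadjusted p under 0.05. For het against WT, 4 genes were called (0.0444%), all lower, and 565 had an unadjusted p under 0.05. Homo against het and the change per edited allele gave 0 called genes (0%) with edgeR, at 509 and 675 genes with an unadjusted p under 0.05. DESeq2 called 1, 2, 0 and 1 genes in these contrasts. With both shallow libraries left out, an alternative added after seeing the data that leaves homo replicate 2 alone in its group and assumes it varies like the other groups, edgeR called 31, 11, 30 and 18 genes, of which 22, 4, 19 and 14 were immunoglobulin genes. The 4 counts ranged over 0 to 19, 1 to 63, 0 to 20 and 0 to 15 when 1 library at a time was left out. All 5 Y665F libraries lay below both WT libraries for 4.48% of the genes tested and above both for 3.96%. The het and homo contrasts share the WT libraries, so their values are given side by side and were not compared for likeness.

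**Figure D2:**
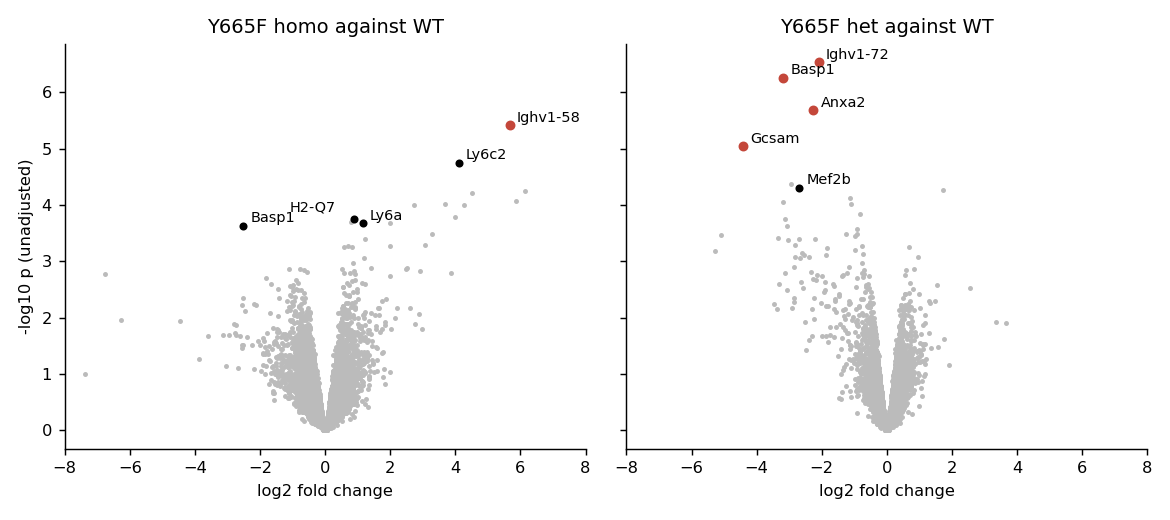
Log2 fold change (x) against -log10 of the unadjusted p (y) for each of 9000 genes in the B gate, for Y665F homo against WT (left) and Y665F het against WT (right), with called genes in red and further labelled genes in black. Called were Ighv1-58 in the left panel and Ighv1-72, Basp1, Anxa2 and Gcsam in the right, all 4 of the latter lower in het.

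The summed level of the 15 germinal centre genes on the list was 363 and 550 CPM in WT, 133, 186 and 191 in het, and in homo 142 and 195, with no overlap between WT and Y665F. In such sums fewer cells of a type and less RNA per cell cannot be told apart. Of the 15, 11 passed the filter on low counts, 2 of them (S1pr2 and Gcsam) through WT alone. Of the other 9, 7 were below both WT libraries in all 5 Y665F libraries, against 4.48% of all genes tested. These 9 had a median log2 fold change of -2.69 in het and -1.55 in homo, and 7 were lower in het and 5 in homo at an unadjusted p under 0.05, against 3.66% and 3.83% of all genes tested. Of the 9, 1 (Basp1) was called in het and 0 in homo. The list was chosen with earlier results of these data known, and members held by the same cells are not separate observations. In WT, barcodes with S1pr2, Mef2b or Gcsam held 59.6% to 92.65% of the UMIs of Basp1, Mybl1, Nuggc and Neil1. They held 11.6% and 24.4% of those of Bcl6.

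Basp1, a membrane-associated signalling protein, lies at chr15:25363277-25413764. It was at 68.7 and 97.9 CPM in WT, 4.33, 11.9 and 31.2 in het, and in homo 4.57 and 17.3. Each Y665F library was below both WT libraries. The log2 fold change was -3.18 ± 0.35 in het (adjusted p = 0.00249) and -2.52 ± 0.50 in homo (adjusted p = 0.149). Of the alternatives, the replicate block (adjusted p = 0.0278) and immunoglobulin, mitochondrial and ribosomal genes left out (0.0319) called Basp1 in homo. No filter on low counts also called Basp1, but there the smallest adjusted p over all genes was 1.02e-146, so this call is a description. Without WT replicate 1, which leaves 1 WT library, the log2 fold change of Basp1 in homo was -2.72. Without homo replicate 2 its log2 fold change in homo was -4.24 (adjusted p = 0.598). Basp1 transcripts in WT came mostly from few cells: 120 of 165 UMIs in replicate 1 and 233 of 254 in replicate 2 lay in barcodes with a germinal centre marker (S1pr2, Mef2b or Gcsam). The call in het was lost with DESeq2 (log2 fold change -2.57, adjusted p = 0.9997), without het replicate 1 (-2.41, adjusted p = 0.0875) and with libraries thinned to the smallest sum (-2.57, adjusted p = 0.34). Gcsam, a germinal centre signalling adaptor at chr16:45610380-45622867, was at 15.8 and 24.3 CPM in WT, 0, 2.37 and 0 in het, and in homo 4.57 and 2.88. Its log2 fold change in het was -4.43 ± 0.64 (adjusted p = 0.0204), a fitted value against a group with 2 libraries at 0. Because Gcsam passed the filter on low counts through WT alone, it had to differ, and its call is a description. The call for Gcsam was lost with DESeq2 (log2 fold change -4.43, adjusted p = 0.0624), without WT replicate 2 (-4.09, adjusted p = 0.237) and without het replicate 1 (-3.28, adjusted p = 0.414). With both shallow libraries left out, Basp1 was called in het (log2 fold change -3.51, adjusted p = 0.000372).

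These members of the list are named after their values were seen. Mef2b, a transcription factor that activates Bcl6, was at 49.1 and 72.8 CPM in WT, 2.89, 20.6 and 3.90 in het, and in homo 0 and 17.3. S1pr2, the receptor that keeps cells within the germinal centre, was at 12.9 and 27.4 CPM in WT and between 0 and 7.21 in Y665F. Neither was called, with adjusted p of 0.0691 and 0.217 in het and of 0.543 and 0.668 in homo. Of the alternatives, 12 called Mef2b lower in het, among them the replicate block, doublets removed and leaving out het replicate 2. Mef2b was called lower in homo under 1, no filter on low counts. S1pr2 was called lower in het under 3 and in homo under 0. Because S1pr2 passed the filter through WT alone, its calls are a description. Mybl1, Nuggc and Neil1 had adjusted p of 0.0691, 0.0847 and 0.0847 in het and were called in it under 12, 11 and 6 of the alternatives. The counts for these genes and for Mef2b in het each include no filter on low counts, whose calls are a description. They also include leaving out WT replicate 1, which leaves 1 WT library, and plasma barcodes removed, added after the data were seen. Mybl1 was at 17.5 and 35.8 CPM in WT and between 1.93 and 13.7 in Y665F. Bcl6 did not follow: it was at 71.6 and 90.2 CPM in WT and between 54.6 and 86.2 in Y665F. Barcodes with a germinal centre marker held 11.6% and 24.4% of the Bcl6 UMIs of the WT libraries, so most came from other cells of the gate.

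**Figure D3:**
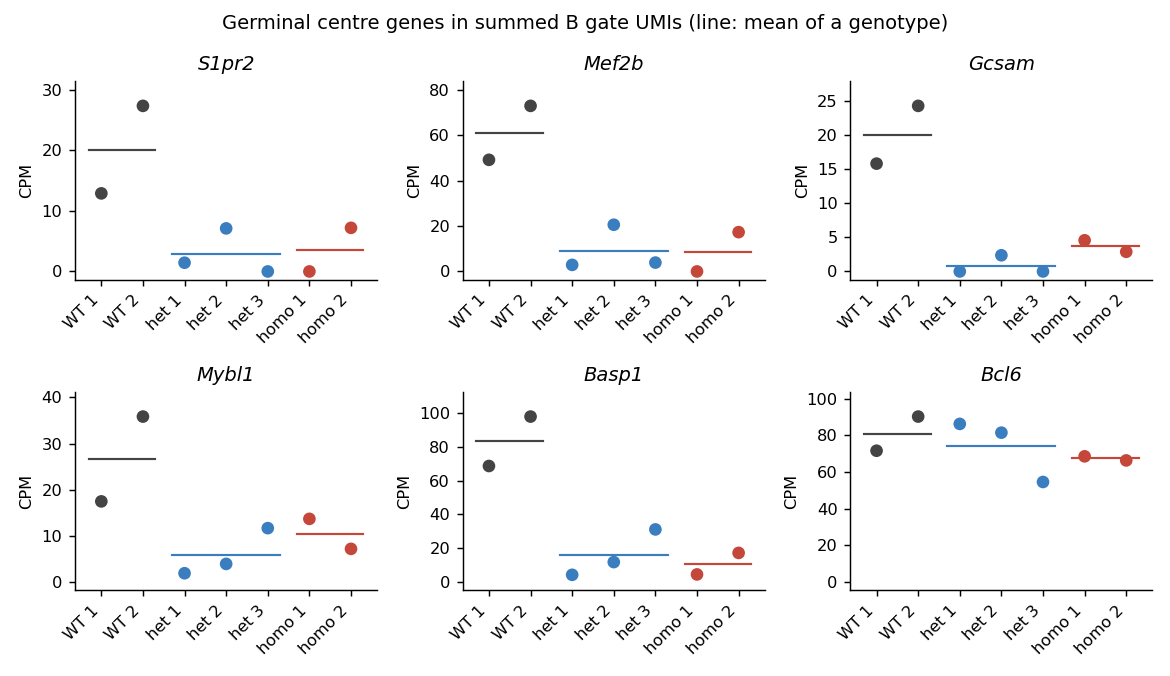
Level (CPM, y) of 6 germinal centre genes in the LN B gate of each library (x), with a line at the mean of each genotype. For Mef2b, Mybl1 and Basp1 all 5 Y665F points lie below both WT points, as for 4.48% of all genes tested. The same holds for S1pr2 and Gcsam, which passed the filter on low counts through WT alone and so had to differ. For Bcl6 the genotypes overlap. S1pr2, Mef2b, Mybl1 and Bcl6 were chosen after their values were seen.

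Counted as cells, barcodes with at least 2 of the 3 markers S1pr2, Mef2b and Gcsam numbered 30 of 2916 and 51 of 2476 in WT. In het they numbered 0 of 1028, 5 of 1096 and 0 of 729, and in homo 0 of 644 and 3 of 817. The shares were 1.03% (0.695% to 1.47%) and 2.06% (1.54% to 2.70%) in WT and at most 0.456% (0.148% to 1.06%) in Y665F. A count of 0 allows, at 3 counts of the total, a share of up to 0.292% in het replicate 1, 0.412% in het replicate 3 and 0.466% in homo replicate 1, and the exact intervals of these libraries end at 0.358%, 0.505% and 0.571%. This criterion was set after the low levels of these genes in Y665F were seen, so the shares restate the same transcripts as counts of cells. Their exact permutation test (p = 0.143, adjusted p = 0.476) was among the 10 shares adjusted together and is no independent support. In the T gate at most 1 barcode of a library reached 2 markers (0.0326%), while a single marker was found in 0.177% to 1.40% of T gate barcodes. A single marker was found in 0.137% to 1.55% of the B gate in Y665F, which was above the share in the T gate of the same library in het replicate 2 and homo replicate 2 and below it in the other 3. Barcodes with 2 markers were deep, with median UMIs of 2450 and 2991 in WT, against 721 and 890 over the whole gate. Thinned to 250 UMIs the criterion found at most 0.121% in any library, too close to 0 to be read. The part of depth in the low shares of the Y665F libraries was not tested. Het replicate 1, at 0, had a median of 1941 UMIs per B gate barcode. It had fewer B gate barcodes and fewer B gate UMIs in sum than either WT library.

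Cell cycle genes gave no call in either Y665F group in the main edgeR fit. Homo against het gave 0 called genes in that fit, whereas the replicate block called Mki67 higher in homo (5 of 9000 genes called). No filter on low counts called Mki67, Rrm2, Birc5, Ccnb2 and Top2a in that contrast (70 of 15290). Of the 20 cell cycle genes, 3 (Ccnb1, Ccnb2 and Tk1) passed the filter through WT alone. Of the other 17, 12 were lower in het at an unadjusted p under 0.05 and 1 in homo, against 3.66% and 3.83% of all genes tested. Their median log2 fold change was -0.97 in het and -0.18 in homo. Some alternatives called members of these 17 lower in het. With no filter on low counts 8 were called (108 of 15290 over all genes), and with the replicate block 4 (21 of 9000). Doublets removed gave 6 (26 of 8958), and immunoglobulin, mitochondrial and ribosomal genes left out gave 5 (24 of 8757). Each of these settings called Mki67, Stmn1 and Rrm2. DESeq2, 1 more B cell marker, sums thinned to the smallest library and leaving out any 1 het library gave 0. Mki67, the proliferation marker, was at 38.3 and 121 CPM in WT, 4.33, 17.4 and 42.9 in het, and in homo 36.5 and 80.7, so both Y665F groups reached into the range of WT. In WT 90.2% and 85.4% of the Mki67 UMIs lay in barcodes with a germinal centre marker, and 17 of 30 and 35 of 51 of the barcodes with 2 such markers held a UMI of Mki67 or Top2a. In homo replicate 2, 42 of 56 Mki67 UMIs lay in plasma barcodes and 12 in barcodes with a germinal centre marker. After thinning to 250 UMIs, barcodes with Mki67 or Top2a made up 0.514% and 0.767% of the gate in WT, 0.486%, 0.365% and 0.755% in het, and in homo 0.351% and 0.857%, which overlap (exact permutation p = 0.648).

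Once plasma barcodes were taken out, an alternative added after the data were seen, het against WT gave 23 called genes (0.253% of 9080 tested) in place of 4, of which 21 were lower. Leaving aside members that then passed the filter through WT alone, 6 of 10 tested germinal centre genes were called, among them Basp1, Mef2b, Mybl1, Nuggc and Neil1, and 4 of 15 cell cycle genes (Mki67, Tyms, Rrm2 and Stmn1), all lower in het. With the barcodes of any germinal centre marker removed as well, edgeR called 0 genes in each of the 4 contrasts, with 575 genes at an unadjusted p under 0.05 in homo against WT and 372 in het against WT. Basp1 then had a log2 fold change of -1.40 ± 0.58 in het (adjusted p = 0.9998). Homo against WT gave 0 called genes in both cases. Barcodes with a germinal centre marker numbered 70 and 89 in WT and 1 to 17 in the Y665F libraries. The markers were picked after their low levels in Y665F were seen. Removing these barcodes had to shrink the differences in the genes they hold. The values after this removal, here and for Anxa2 below, are therefore a description and no test.

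Anxa2, a calcium-dependent membrane-binding protein on the B-1 cell list, was the other non-immunoglobulin gene called in het. It lies at chr9:69453620-69491795. It was at 34.1 and 47.0 CPM in WT, 7.22, 8.70 and 15.6 in het, and in homo 18.3 and 33.1. Homo replicate 2 came close to WT replicate 1, and the log2 fold change was -2.26 ± 0.28 in het (adjusted p = 0.00624) and -0.44 ± 0.32 in homo (adjusted p = 0.807). The value in homo depended on single libraries: it was -1.22 without homo replicate 2 and -0.23 without WT replicate 2 or without homo replicate 1. Barcodes with a germinal centre marker held 64.6% and 86.9% of its UMIs in WT, and with them and the plasma barcodes removed the log2 fold change in het was -0.84 ± 0.59 (adjusted p = 0.9998). Without het replicate 1 the call was lost (log2 fold change -2.005, adjusted p = 0.348), as it was without het replicate 2 (-2.295, adjusted p = 0.0597).

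Plasma cells were few. Barcodes with at least 2 of the markers Jchain, Sdc1, Prdm1 and Tnfrsf17, or with at least 25% of UMIs in immunoglobulin genes, numbered 5 and 4 in WT, 0, 0 and 2 in het, and in homo 1 and 6. They held 0.871% and 0.791% of the B gate UMIs in WT, 0%, 0% and 1.52% in het, and in homo 0.475% and 5.63%, where replicate 2 stands apart. The exact permutation p of their share of barcodes was 0.781. Immunoglobulin genes held 1.87% and 1.72% of B gate UMIs in WT, 1.702%, 1.701% and 2.41% in het, and in homo 1.74% and 4.22%. With plasma barcodes removed the WT shares were 1.56% and 1.43%, and that of homo replicate 2 was 1.897%.

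The gene called in homo came mostly from 1 such cell. Ighv1-58, a heavy chain variable segment, was at 4.99 and 8.09 CPM in WT, 5.30, 14.2 and 7.79 in het, and in homo 13.7 and 516 (log2 fold change 5.67 ± 0.75, adjusted p = 0.0347). In homo replicate 2, 346 of its 358 UMIs came from 1 plasma barcode, and without that library the log2 fold change was 0.98 (adjusted p = 0.893). The call was also lost without het replicate 1 (5.59, adjusted p = 0.134) and without het replicate 2 (5.597, adjusted p = 0.194), where the log2 fold change stayed as large. It was further lost with 1 more B cell marker (1.44, adjusted p = 0.661), with doublets removed (1.51, adjusted p = 0.619), with plasma barcodes removed (1.37, adjusted p = 0.577), with these and germinal centre barcodes removed (1.497, adjusted p = 0.717) and among genes at least as high in the B gate as in the T gate (5.64, adjusted p = 0.0782). Ighv1-72, the segment called lower in het, rested on single cells in the same way: 1 plasma barcode held 92 of 145 UMIs in WT replicate 1 and another 113 of 166 in WT replicate 2. It was at 60.3 and 64.0 CPM in WT, 17.3, 12.7 and 3.90 in het, and in homo 22.8 and 37.5. Its log2 fold change in het was -2.09 ± 0.22 (adjusted p = 0.00249), and -0.56 ± 0.28 (adjusted p = 0.75) with plasma barcodes removed. The call was also lost with 1 more B cell marker (-1.505, adjusted p = 0.378) and with sums thinned to the smallest library (-2.52, adjusted p = 0.34). Close members of a variable segment family can be near-identical, so reads may be split between them.

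The richest plasma barcodes show the same. In homo replicate 2 a barcode of 6599 UMIs held 3970 UMIs of the light chain segment Igkv12-44, of 4150 in the whole B gate of that library. The 6 plasma barcodes of homo replicate 2 carried 6 different heavy and 6 different light chain segments as their richest. In WT replicate 1, 2 of the 5 plasma barcodes shared Ighv5-17 and Igkv1-110 as the richest segments and Igha as the richest constant gene. Igha was the richest heavy constant gene in 4 of 5 and 2 of 4 plasma barcodes of WT in 1 of the 2 of het, and in 0 of 7 of homo, where Ighm, Ighg2b and Ighg2c led.

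Igha, the IgA constant gene, was at 192 and 313 CPM in WT, 6.74, 7.90 and 316 in het, and in homo 13.7 and 10.1. Plasma barcodes held 96.3% and 98.3% of its UMIs in WT and 91.4% in het replicate 3, and the log2 fold change of homo against WT went from -4.47 (adjusted p = 0.569) to 0.89 (adjusted p = 0.794) when they were removed. Igha was called lower in homo, and also in het, with no filter on low counts, without het replicate 3 and with the replicate block. The adjusted p in homo was 0.000361 without het replicate 3 and 8.03e-05 with the block. Its log2 fold change in homo was -4.58 with at least 500 genes per barcode and -4.57 with both shallow libraries left out, which leave homo replicate 2 alone. All of these but no filter drop het replicate 3, the Y665F library at 316 CPM, or give it a term of its own (the block). They are therefore not separate checks. Class-switched transcripts made up 20.3% and 29.02% of heavy constant UMIs in WT, 0.539%, 1.56% and 30.7% in het, and in homo 5.199% and 40.2% (exact permutation p = 0.876). With plasma barcodes removed these shares were 4.61% and 5.98% in WT, 0.539%, 1.56% and 5.06% in het, and in homo 6.20% and 2.16%, so the groups overlapped in both cases. Het replicates 1 and 2, in which no plasma barcode was found, had the lowest shares in both. With plasma barcodes removed 2 genes of secreted or switched antibody were called lower in het. Ighg2b, an IgG constant gene, was then at 35.7 and 52.4 CPM in WT, 0, 3.95 and 15.8 in het, and in homo 22.9 and 3.05 (log2 fold change in het -4.06 ± 0.54, adjusted p = 0.00158). Jchain, which links IgA and IgM into polymers, ranged from 0.963 to 1186 CPM over the Y665F libraries, and 245 and 406 CPM in WT lay between. With plasma barcodes removed Jchain was at 48.3 and 78.1 CPM in WT, 0.963, 14.2 and 51.4 in het, and in homo 22.9 and 19.9 (log2 fold change in het -2.70 ± 0.48, adjusted p = 0.0171), and het replicate 3 lay within the range of WT. Ighm, the IgM constant gene, was at 814 and 787 CPM in WT, 1047, 1049 and 908 in het, and in homo 1000 and 1300 (log2 fold change of homo 0.55 ± 0.17, adjusted p = 0.543). It was 0.15 (adjusted p = 0.854) with plasma barcodes removed and 0.25 (adjusted p = 0.784) without homo replicate 2, and was called with at least 500 genes per barcode (1.01, adjusted p = 0.00678). An Ighm UMI was also found in 10.9% to 50.3% of T gate barcodes, so its share of barcodes was not read. Ighd, the IgD constant gene of naive cells, gave a log2 fold change of 0.15 ± 0.18.

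Most mouse B cells carry a kappa light chain. Lambda constant UMIs made up 67.5% and 62.9% of all light chain constant UMIs in WT, 68.4%, 74.1% and 64.4% in het, and in homo 68.7% and 58.4% (exact permutation p = 0.876). An Iglc UMI together with a UMI of a kappa variable segment was found in 48.3% to 92.4% of B gate barcodes, and a lambda variable segment in 9.74% to 20.2%. The share of lambda constant UMIs is therefore not a share of lambda cells, and the mapping of the Iglc genes was not tested.

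**Figure D4:**
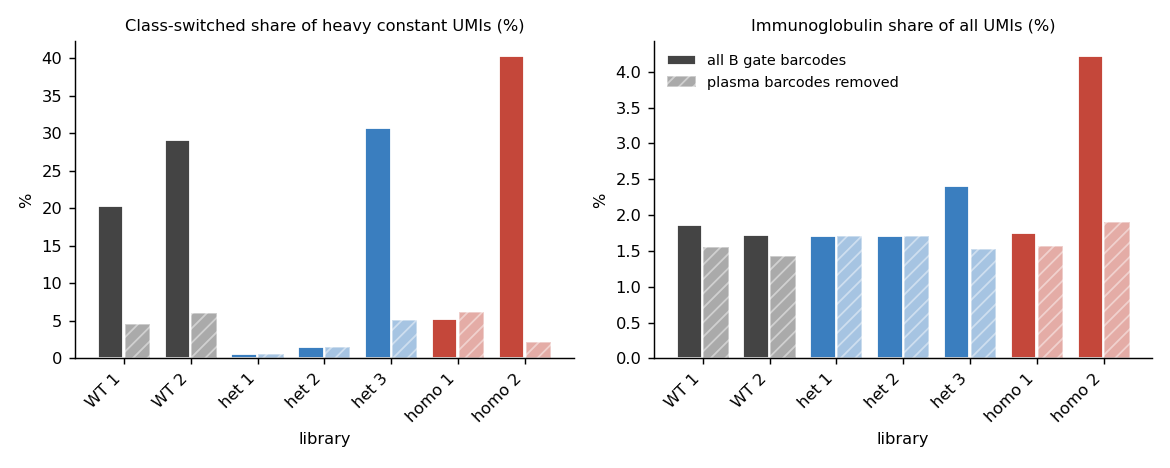
Class-switched share of heavy constant UMIs (left, %) and immunoglobulin share of all UMIs (right, %) in the LN B gate of each library, with all barcodes (solid bars) and with plasma barcodes removed (hatched bars). The class-switched share falls from 20.3% and 29.02% to 4.61% and 5.98% in WT and from 40.2% to 2.16% in homo replicate 2 when plasma barcodes are removed.

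Of the interferon-induced genes 0 were called in the main edgeR fit of all 7 libraries. With the same libraries 3 alternatives each called 1 of them, Ly6a, in homo. These were DESeq2 (1 of 8998 genes called), sums thinned to the smallest library (6 of 4682) and immunoglobulin, mitochondrial and ribosomal genes left out (3 of 8757). No filter on low counts called 5 in homo (77 of 15290 genes) and 2 in het (108 of 15290). Of 33 genes on the list found in the matrix, 10 were above both WT libraries in all 5 Y665F libraries, against 3.96% of all genes tested. At an unadjusted p under 0.05, 11 of 32 tested were higher and 0 were lower in each of homo and het, against 3.57% and 2.62% of all genes higher in homo and het. The median log2 fold change was 0.60 in homo and 0.50 in het. The summed level was 6306 and 4974 CPM in WT, 7558, 6688 and 7029 in het, and in homo 7011 and 7566. WT replicate 2 was the lowest of the 7 libraries for 26 of the 33 genes (78.8%, against 6.52% of all genes tested). WT replicate 1 was below all 5 Y665F libraries for 10 of them (30.3%, against 11.5%). Irf7, the regulator of interferon genes, was at 65.8 and 27.0 CPM in WT and between 70.1 and 95.6 in Y665F, with a log2 fold change of homo of 1 ± 0.38, which was 0.45 without WT replicate 2 and 1.799 (adjusted p = 0.0126) without WT replicate 1.

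Ly6a, which encodes the surface protein Sca-1 and lies at chr15:74994877-74998031, had the smallest adjusted p on this list and is named after its values were seen. It was at 453 and 301 CPM in WT, 640, 474 and 752 in het, and in homo 813 and 859. Both homo libraries were above all others. The log2 fold change was 1.16 ± 0.23 in homo (adjusted p = 0.147) and 0.70 ± 0.21 in het (adjusted p = 0.466). DESeq2 called Ly6a in homo (adjusted p = 0.000765), as did edgeR without WT replicate 1 (log2 fold change 1.51, adjusted p = 0.0225), with sums thinned to the smallest library (adjusted p = 0.0302) and with immunoglobulin, mitochondrial and ribosomal genes left out (adjusted p = 0.0295), whereas without WT replicate 2 the log2 fold change was 0.86 (adjusted p = 0.687). 3 MHC class I genes, also named after their values were seen, were not called. H2-Q7 was at 210 and 179 CPM in WT, 289, 248 and 327 in het, and in homo 388 and 339 (log2 fold change of homo 0.90 ± 0.17, adjusted p = 0.147). H2-K1 and H2-D1 gave 0.57 ± 0.13 and 0.52 ± 0.13. In each of these 4 genes all 5 Y665F libraries were above both WT libraries, as they were for 3.96% of all genes tested. Since the 4 were picked by their values, this is a description. MHC class I genes are near-identical, and reads can be split between them.

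The summed level of 20 genes of follicular and recirculating cells was 5932 and 5957 CPM in WT, 7005, 6835 and 6909 in het, and in homo 7061 and 6776, with no overlap. Of the 20, 7 were above both WT libraries in all 5 Y665F libraries, against 3.96% of all genes tested, and 0 were called. At an unadjusted p under 0.05, 6 were higher and 2 lower in homo, against 3.57% and 3.83% of all genes tested. Klf2, a transcription factor of quiescence and egress, was at 816 and 746 CPM in WT, 992, 1099 and 1001 in het, and in homo 1128 and 1169 (log2 fold change 0.57 ± 0.14, adjusted p = 0.404). In the T gate Klf2 was at 703 and 620 CPM in WT and 977 and 1037 in homo (het 669, 746 and 957).

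Of 8 heat shock and dissociation genes tested, 6 were lower in homo at an unadjusted p under 0.05, against 3.83% of all genes tested, and 0 were called. Their summed level was 5948 and 6495 CPM in WT, 6386, 5123 and 4052 in het, and in homo 4713 and 4156. The T gate of the same libraries gave 6760 and 7555, 7549, 6094 and 4981, and 6036 and 5540 CPM, lower in both homo libraries than in WT as in the B gate.

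The remaining lists held 0 called genes, apart from Anxa2 on the B-1 cell list in het. The median log2 fold change of homo against WT lay between -0.036 and 0.175 for B cell receptor signalling, marginal zone, immature, MHC class II, JAK and STAT, cytokine receptor, IL-4 responsive, BCL2 family, activation, transcription factor and immunoglobulin constant genes. It was 0.34 for B-1 and for memory cell genes, 0.32 for homing receptors and 0.64 for plasma cell genes. MHC class II genes, of which 14 of 14 were tested, had 0 members at an unadjusted p under 0.05 in either contrast. Txndc5, an endoplasmic reticulum oxidoreductase on the plasma cell list, was at 152 and 148 CPM in WT, 154, 155 and 164 in het, and in homo 242 and 268 (log2 fold change 0.80 ± 0.16, adjusted p = 0.147), and was called in homo with at least 500 genes per barcode. Of other cell types, the 20 T cell genes summed to 284 and 306 CPM in WT, 256, 244 and 705 in het, and in homo 690 and 264, highest in the shallow libraries. The sums of myeloid genes were 288 to 515 CPM and of stromal and red cell genes 145 to 188 CPM. The part of T cell RNA in the values of the shallow libraries was not tested.

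**Figure D5:**
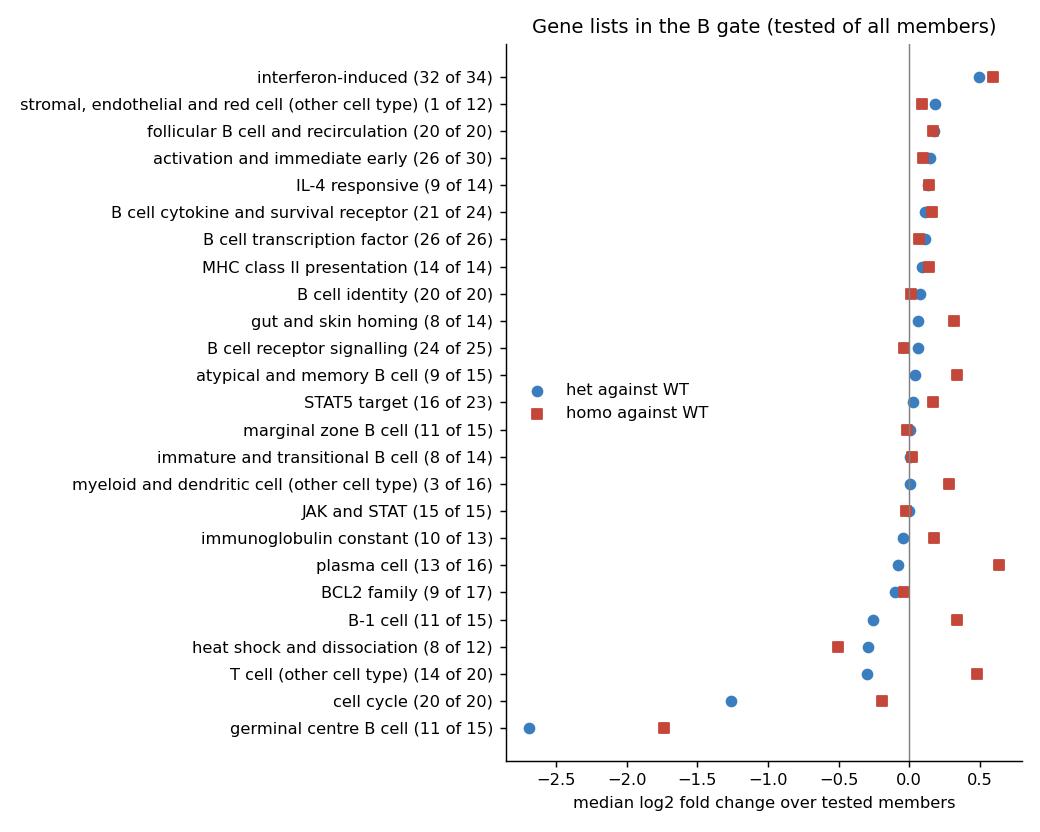
Median log2 fold change over the tested members of each gene list in the LN B gate, for Y665F het against WT (circles) and Y665F homo against WT (squares), with tested and all members counted in brackets. Germinal centre genes lie at -2.69 and -1.74 and cell cycle genes at -1.27 and -0.19, both including members that passed the filter through WT alone, and interferon-induced genes at 0.50 and 0.60.

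Whether homo differed from WT in the same way in B and T cells was tested with an interaction term over the B and T gates of the 7 libraries. Of 10615 genes, 24 were called (0.226%), 11 with the B gate change above that of the T gate and 13 below. Ly6a had the smallest adjusted p. In the T gate it was at 206 and 215 CPM in WT and 203 and 193 in homo, and the difference between the changes was 1.26 ± 0.145 on the log2 scale (adjusted p = 4.26e-06). Without WT replicate 2 the difference was 0.896 (adjusted p = 4.83e-05), below the fold that a call needs. Ccr6, the receptor for CCL20, was at 83.2 and 82.1 CPM in WT B cells and 110 and 120 in homo. In the T gate it was at 7.37 and 9.19 CPM in WT and 3.85 and 1.55 in homo (difference 2.44 ± 0.41, adjusted p = 0.00238). This call was lost without homo replicate 2 (difference 1.42, adjusted p = 0.725) and without WT replicate 2 (2.19, adjusted p = 0.059). Plek, a substrate of protein kinase C, went the other way. It was at 90.3 and 85.6 CPM in WT B cells and 68.5 and 73.5 in homo, against 4.53 and 3.87 CPM in WT T cells and 19.3 and 16.8 in homo (difference -2.40 ± 0.32, adjusted p = 5.53e-05). Ly6a and Plek were also called with plasma barcodes removed, where the count was 22. The count depended on the libraries: it was 42 without WT replicate 1, 6 without WT replicate 2, 40 without het replicate 3 and 5 without homo replicate 2.

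The spleen gave a B gate of 1 library for each of WT, Y665H and Y665F, and the labels do not give zygosity. With 1 library a group there is no test. B gate barcodes made up 22.2% (21.2% to 23.2%) of the WT library, 25.7% (24.7% to 26.6%) of Y665H and 14.7% (13.7% to 15.7%) of Y665F. Barcodes with 2 germinal centre markers numbered 1 of 1523 in WT, 2 of 2058 in Y665H and 1 of 739 in Y665F, too few for a comparison. Plasma barcodes numbered 36, 30 and 11, or 2.36%, 1.46% and 1.49% of the gate. Ly6a was at 208 CPM in WT, 228 in Y665H and 376 in Y665F, and H2-Q7 at 263, 257 and 321 CPM. H2-K1 (1240, 1212 and 1312 CPM), H2-D1 (1085, 1182 and 1008 CPM) and Klf2 (677, 624 and 596 CPM) did not all go the same way, with H2-D1 and Klf2 lower in Y665F than in WT.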

How the data were processed

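Single-cell suspensions of lymph nodes were sequenced with a gene expression library and a TCR library per sample. The deposited matrices hold counts, UMIs per gene and barcode over 32285 genes, made by the authors with Cell Ranger 5.0.0 per the file headers, and the submitters' processing notes name Cell Ranger 5.0, Seurat 4.0 and mm10. No deposited normalization was used, and 0 columns were left unassigned. Barcodes were gated as described, and the counts of a gate were summed per library. Sums were tested with edgeR 4.0.16 (quasi-likelihood, TMM, filterByExpr) over the WT, het and homo groups in 1 fit, in R 4.3.3. Shares were tested with exact permutation tests over libraries in Python 3.11.15 with scipy 1.17.1. DESeq2 1.42.0 was an alternative, beside other scaling and filters, stricter gates, thinning, removal of doublets scored against simulated doublets (0.8% per 1000 barcodes), the replicate block and leaving out each library. Removal of plasma and germinal centre barcodes and of both shallow libraries was added after seeing the data.

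The members and the 25 gene lists were chosen with earlier results of these data known. Genes were named if called in homo against WT without overlap of the groups (up to 12 per direction, immunoglobulin segments, unnamed models, mitochondrial, ribosomal and sex-linked genes left out), or in the other contrasts (up to 5 per direction), or if on a list at an adjusted p under 0.05, together with Stat5a, Stat5b, Cd79a, Cd79b, Ms4a1, Ighm, Ighd, Igkc, Cish, Socs2, Bcl2, Il4ra, Il2rg, Cr2 and Fcer2a. Beside these 15, the rule named Basp1, Anxa2, Gcsam and 10 genes of the B and T gate interaction, and all others were chosen after their values were seen. Barcodes with 2 germinal centre markers and plasma barcodes were likewise defined after seeing the data. Sums ranged from 218955 to 2594984 UMIs, so low genes are least precise in the 2 shallow libraries. The labels and the methods differ on the kit (3′ or 5′), and strand and read filters are not given in the sources used here. Some genes of the rule and lists are not reported here.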

Additional observations from a re-analysis of the deposited data

Results flagged for a closer look

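In 10 genes taken by the naming rule (5 in each direction, by size of the difference), the change of homo against WT differed between the B gate and the T gate by the interaction test of edgeR. Ly6a, with a smaller difference and a smaller adjusted p, is given with the comparison of B and T cells. Values are differences of log2 fold changes, B gate minus T gate. Groups held 2 or 3 libraries, too few for a test of single outlying libraries.

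The change in the B gate was above that in the T gate for 5 of them. Ly6c2, a surface antigen of memory T cells and plasma cells, differed by 2.71 ± 0.415 (SE, adjusted p = 0.000644). It was at 15.8 and 5.40 CPM in WT B cells and 91.3 and 218 in homo, and at 332 and 257 CPM in WT T cells and 892 and 716 in homo. Of its 151 UMIs in homo replicate 2, 124 lay in plasma barcodes. Of the alternatives, 11 called Ly6c2 higher in homo in the B gate, among them the replicate block (adjusted p = 0.00864). The 11 include no filter on low counts, a description, and fits that leave 1 WT or 1 homo library. The log2 fold change of Ly6c2 for homo against WT in the B gate was 4.11 (adjusted p = 0.0803) in the main fit. It was 3.31 (adjusted p = 0.0753) with plasma barcodes removed and 3.04 (adjusted p = 0.685) without homo replicate 2. Ccr6 differed by 2.44 (adjusted p = 0.00238). Tgtp2, an interferon-induced GTPase, differed by 2.31 ± 0.502 (adjusted p = 0.0204), with 14.6 and 4.24 CPM in WT B cells and 18.3 and 30.3 in homo, against 46.8 and 49.2 CPM in WT T cells and 21.8 and 30.3 in homo. Gbp7, another interferon-induced GTPase, differed by 1.54 ± 0.362 (adjusted p = 0.0375), with 15.8 and 13.1 CPM in WT B cells and 41.1 and 36.03 in homo. Aldh2, an aldehyde dehydrogenase, differed by 1.53 ± 0.326 (adjusted p = 0.0184), with 11.3 and 9.43 CPM in WT T cells and 6.42 and 3.09 in homo.

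The change in the B gate was below that in the T gate for the other 5. Plek differed by -2.40 (adjusted p = 5.53e-05). Ccl4, a chemokine of activated lymphocytes, differed by -2.67 ± 0.53 (adjusted p = 0.0125), with 9.63 and 5.81 CPM in WT T cells and 16.0 and 38.9 in homo. Pik3ap1, an adaptor of B cell receptor signalling, differed by -2.11 ± 0.447 (adjusted p = 0.0177), with 173 and 180 CPM in WT B cells and 187 and 153 in homo, against 3.40 and 1.33 CPM in WT T cells and 10.9 and 6.403 in homo. Ube2c, a mitotic ubiquitin-conjugating enzyme, differed by -2.01 ± 0.445 (adjusted p = 0.024), and its WT libraries were at 13.7 and 63.6 CPM in the B gate. Osbpl3 differed by -9.35 (adjusted p = 0.0184), but it was at 0 in 4 of the 7 B gates, so the fitted value depends on how counts of 0 are handled and is no bound. Without WT replicate 2, 6 genes were called over all genes, and of these 10 Plek and Ly6c2 were among them. Without homo replicate 2, 5 were called, of these 10 only Plek, and Ly6c2 was 1.39 (adjusted p = 0.747) and Ccr6 1.42 (adjusted p = 0.725). With plasma barcodes removed Ly6c2 was 1.81 (adjusted p = 0.0503) and the other 9 were called. The part of T cell RNA in the B gate and of B cell RNA in the T gate in these values was not tested.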

How the results depend on the processing

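Counts of called genes moved with most settings, and the cause was not tested unless the setting itself removes genes or libraries. With no filter on low counts the smallest adjusted p of a contrast lay between 2.33e-223 and 9.43e-117, for immunoglobulin genes. All calls under that setting are therefore given as a description. In the order homo against WT, het against WT, homo against het and per allele, the counts of 1, 4, 0 and 0 became 77, 108, 70 and 112 with no filter on low counts, 32, 39, 32 and 17 with at least 500 genes per barcode (in 5 libraries, since het replicate 3 and homo replicate 1 kept 17 and 16 barcodes, under the minimum of 50, which leaves homo replicate 2 alone and assumed to vary like the other groups), and 31, 11, 30 and 18 with both shallow libraries left out. With sums thinned to the smallest library they were 6, 0, 7 and 7, and with immunoglobulin, mitochondrial and ribosomal genes left out 3, 24, 1 and 5. One more B cell marker gave 6, 9 and 8 in the first 3 contrasts, and no T transcript and no TCR contig gave 2 in homo against WT, 6 in homo against het and 1 per allele. Genes at least as high in the B gate as in the T gate gave 0 in homo against WT, and DESeq2 gave 2 in het against WT and 1 per allele. With doublets removed het against WT gave 26, homo against het 1 and per allele 5, and with plasma barcodes removed the counts were 0, 23, 1 and 6. With plasma and germinal centre barcodes removed homo against WT and het against WT gave 0. Leaving out 1 library gave 0 to 19, 1 to 63, 0 to 20 and 0 to 15. The interaction of B and T gates gave 39 with no filter and 5 to 42 leaving out 1 library.

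The deviations of same-numbered libraries from their group means gave correlations from -0.0031 to 0.0622. With so few libraries in WT and in homo, the deviations within each of these groups mirror each other, so the correlations are not independent. They therefore cannot decide whether same-numbered libraries share more than a number, and a shared preparation was not tested. The fit with the replicate block called 4, 21, 5 and 4 genes. In this fit het replicate 3, the only library with that number, has a term of its own and adds nothing to the contrasts.

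Of the shares (homo minus WT, in points), the B gate share was -12.9 to -29.6 leaving out 1 library and -19.1 with both shallow libraries left out (exact p = 0.0667). The lambda share was 1.46 with plasma barcodes removed and -6.89 to 3.44 leaving out 1 library. The class-switched share was 3.49 with 1 more B cell marker and -19.5 to 15.6 leaving out 1 library. The share of Ighd among Ighm and Ighd UMIs was -5.44 with all barcodes (exact permutation p = 0.0762, adjusted p = 0.381). It was 0.824 with plasma barcodes removed. Leaving out 1 library, the share of cycling barcodes was -0.29 to 0.216, of TCR contigs -0.59 to 3.86, of T marker UMIs -0.0031 to 0.0395, of immunoglobulin UMIs -0.0483 to 2.42 and of plasma barcodes -0.0112 to 0.568.

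Single genes that turned direction in homo against WT had been without a call: Anxa2 0.23 with plasma and germinal centre barcodes removed, Igha 0.89 and 0.88 and Ighv1-72 0.72 and 0.68 with plasma barcodes and with both kinds removed, and Jchain -1.59 with plasma barcodes removed, -0.70 with both kinds removed, -0.29 with doublets removed and -0.58 to 1.93 leaving out 1 library. Leaving out 1 library, Igkc was -0.43 (without homo replicate 2) to 0.80, and Ube2c -3.14 to 0.20 (without WT replicate 2). The others were Pik3ap1 0.29 with thinned sums, and Ms4a1 0.15 and Stat5a -0.30 with 1 more B cell marker. Bcl2, Bcl6, Igkc, Ms4a1, Pik3ap1, Stat5a and Stat5b also crossed 0 in 12 further settings, at values of -0.067 to 0.0496. Of the other single-gene values 939 stayed on their side of the threshold, 39 crossed into a call and 22 out of one. Depth limits genes of a few CPM most in het replicate 3 and homo replicate 1.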

Other observations

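In the T gate of the same libraries the interferon-induced genes summed to 4494 and 4416 CPM in WT, 4513, 4268 and 4289 in het, and in homo 4395 and 4806, where the genotypes overlapped. In the B gate all 5 Y665F sums were above both WT sums.

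Jun, a subunit of the transcription factor AP-1 and on the list of activation genes, was at 182 CPM in both WT libraries, 254, 233 and 253 in het, and in homo 283 and 298, without a call, but was 1 of the 32 genes called in homo against WT with at least 500 genes per barcode. Stat3, a transcription factor related to STAT5, was at 142 and 189 CPM in WT, 129, 111 and 140 in het, and in homo 101 and 125, also without a call.

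Among variable segments with at least 20 UMIs in a library, one with more than 50% of its UMIs in a single barcode was found 5 and 9 times among 140 and 144 segments in WT, 9, 2 and 5 times among 139, 109 and 42 in het and 2 and 16 times among 37 and 89 in homo.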
